A study of Homo sapiens with 36 samples.

Results

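WI-38 fibroblasts damaged by a detergent were compared with WI-38 fibroblasts damaged by doxorubicin, at D3 and D4, 3 and 4 days after the agent was removed. WI-38 is a strain of normal human lung fibroblasts with a limited number of divisions. In the plasma membrane damage arm (PMD-Sen), the cells were exposed to sodium dodecyl sulphate (SDS), a detergent. In the DNA damage arm (DDR-Sen), they were exposed to doxorubicin (DXR), a topoisomerase poison that breaks DNA. All 8 libraries that carry the labels SDS or DXR at D3 or D4 entered the comparison, 2 biological replicates for each treatment and day, out of 36 small RNA libraries in the series. The other 28 libraries were the same treatments on other days, young proliferating cells (Ctrl) and replicatively senescent cells, and they were used only where this is stated. All 8 libraries came from treated cells that had been kept in culture for the same times after removal of the agent. No untreated culture entered this comparison. The agent and any other difference between the arms cannot be told apart in this design. Every listed miRNA was considered: 1508 names, of which 1017 had at least 1 count in the 8 libraries and 306 had counts high enough in enough libraries to be tested.

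A miRNA is a short RNA that guides an Argonaute protein to messenger RNAs, mostly through bases 2 to 8 of its 5′ end, the seed, and lowers their translation and stability. miRNAs with the same seed form a family with largely shared targets, and miRNAs whose hairpins lie together in the genome are often cut from a common primary transcript. In fibroblasts entering senescence, p53 raises transcription of the miR-34 genes, the miR-17 clusters driven by MYC and E2F promote the cell cycle, the let-7 family restrains growth genes such as HMGA2 and RAS, and miR-146 damps NF-κB signalling upstream of the secreted inflammatory factors.

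The mature sequences are shown first, because 5 of the 25 lower miRNAs shared the let-7 seed, while the 14 of the 34 higher miRNAs that shared a locus had different seeds. They are the RefSeq entries on GRCh38.p14, which held a sequence for 274 of the 306 tested miRNAs and for 53 of the 59 that differed between treatments. Bases 2 to 8 are in capitals. The first set holds the 5 let-7 members that were lower after SDS than after DXR, and all of them carry the seed GAGGUAG:
let-7a-5p: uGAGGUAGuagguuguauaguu
let-7b-5p: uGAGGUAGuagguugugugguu
let-7d-5p: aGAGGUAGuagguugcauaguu
let-7e-5p: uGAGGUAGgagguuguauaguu
let-7f-5p: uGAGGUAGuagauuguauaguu

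The next set holds other miRNAs that were lower after SDS. miR-26a-5p and miR-26b-5p share the seed UCAAGUA, and the rest have seeds of their own:
miR-26a-5p: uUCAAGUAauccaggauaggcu
miR-26b-5p: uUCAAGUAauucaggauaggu
miR-30c-5p: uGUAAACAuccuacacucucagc
miR-146b-5p: uGAGAACUgaauuccauaggcug
miR-374b-5p: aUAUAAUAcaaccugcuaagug
miR-34a-5p: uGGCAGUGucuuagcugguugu
miR-574-5p: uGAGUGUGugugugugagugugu

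Among the miRNAs that were higher after SDS, those of the 14q32 cluster are shown because they share a locus but not a seed:
miR-370-3p: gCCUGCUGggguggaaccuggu
miR-379-5p: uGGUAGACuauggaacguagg
miR-381-3p: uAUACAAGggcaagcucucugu
miR-409-3p: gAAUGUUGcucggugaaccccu
miR-654-5p: uGGUGGGCcgcagaacaugugc

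The last set holds higher miRNAs from other loci:
miR-423-3p: aGCUCGGUcugaggccccucagu
miR-7-5p: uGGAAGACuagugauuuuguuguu
miR-625-3p: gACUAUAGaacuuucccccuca
miR-449c-5p: uAGGCAGUguauugcuagcggcugu

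miR-449c-5p is included because it holds the run GGCAGUG of miR-34a-5p, which starts at base 3 in miR-449c-5p and at base 2 in miR-34a-5p, yet the pair differed between treatments in opposite directions. Among the 274 tested miRNAs with a sequence here, these 2 hold that run. miR-449c-5p had few counts after DXR and passed the count filter through the SDS libraries alone, which favours its direction. miR-34c-5p, the other tested member of the miR-34 family, has no entry in the table. On GRCh38.p14, miR-34a-5p lies at chr1:9151735-9151756 on the minus strand in an exon of the lncRNA MIR34AHG, and miR-449c-5p lies at chr5:55172313-55172337 on the minus strand in an intron of CDC20B. miR-146b-5p is at chr10:102436520-102436542, with no annotated host gene on its strand in GENCODE. miR-374b-5p is at chrX:74218587-74218608 in an exon of the lncRNA FTX, and let-7b-5p is at chr22:46113691-46113712 in an exon of its host lncRNA MIRLET7BHG. In these entries let-7a-5p has 3 genomic positions, and let-7f-5p, miR-26a-5p, miR-30c-5p and miR-7-5p have 2 each, so their counts cannot be assigned to a locus.

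The 8 libraries held 232939 to 568323 miRNA counts, and 51.8% to 56.8% of these belonged to the top 10 miRNAs of each library. The 4 SDS libraries had totals of 310320 to 568323 and the 4 DXR libraries 232939 to 377122. Levels are given as CPM, counts scaled to a common library total after TMM normalization, and differences are log2 of SDS over DXR, averaged over D3 and D4, with the standard error (SE) of the fit. Replicates had r of 0.970 (SDS D4) to 0.989 (SDS D3) in log2 CPM. The first principal component of the tested miRNAs held 31.5% of the variance and put all SDS libraries (-7.77 to -1.20) on the other side of all DXR libraries (3.06 to 4.44). SDS D4 replicate 2 stood apart from the rest, at -7.77 on the first component and -5.49 on the second, where its replicate lay at 4.78. Results that rest on it are given with and without it.

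After SDS, 34 miRNAs were higher and 25 were lower than after DXR, 59 of 306 tested (19.3%) at an adjusted p below 0.05 (edgeR's quasi-likelihood test with day as a covariate, Benjamini-Hochberg adjustment). The higher ones made up 11.1% of the tested miRNAs and the lower ones 8.17%. By p, the lower group was led by miR-486-5p, miR-30c-5p, miR-146b-5p and miR-574-5p, and it held 5 of the 9 let-7 and miR-98 members. The higher group was led, also by p, by miR-370-3p, miR-409-3p, miR-654-5p and miR-7-5p, and 14 of its 34 members belonged to the 14q32 cluster. Most differences were moderate: the median was 1.49-fold among the higher miRNAs and 1.46-fold among the lower ones, 37 of the 59 exceeded 0.5 on the log2 scale and 4 exceeded 1. The study's own criteria, p below 0.05 before adjustment together with a log2 difference of more than 1 in size, were met by 9 miRNAs (2.94%), 7 higher (2.29%) and 2 lower (0.654%). The 4 SDS libraries and the 4 DXR libraries did not overlap for 51 of the 59, against 71 of all 306 tested (23.2%).

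**Figure D1:**
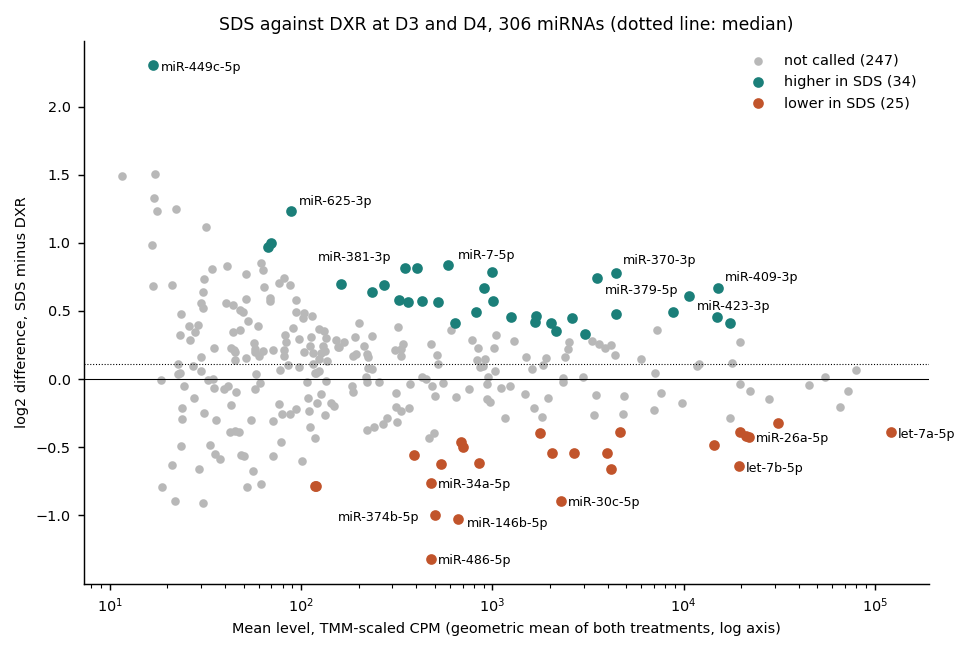
The log2 difference of SDS minus DXR at D3 and D4 (vertical axis) is plotted against the mean level in TMM-scaled CPM (horizontal log axis) for 306 miRNAs, with the 34 higher after SDS in green and the 25 lower in orange. The lower miRNAs reach up to let-7a-5p, the most abundant miRNA of these libraries, while the highest point, miR-449c-5p at 2.30, lies at a low level. That miRNA passed the count filter through the SDS libraries alone.

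The balance between the directions differed between scalings, filters, depths and fits. The median of all tested miRNAs was 0.11 with TMM, and 59.5% lay above 0. Still with TMM, a filter on a mean of at least 10 counts gave a median of 0.02, with 20 miRNAs higher and 32 lower. Thinning each library to the smallest total gave a median of 0.02, with 23 higher and 32 lower. With DESeq2's size factors the median was 0.03 and 22 miRNAs were higher and 31 lower, with library totals it was 0.19 with 43 and 17, and in the fit on all 36 libraries, which has 18 conditions and 360 tested miRNAs as well as another scaling, it was -0.03 with 8 and 23. Under 10 alternatives that kept all 8 libraries, and also with each of the 8 libraries left out, 21 of the 59 kept their call, 16 lower and 5 higher. The 16 lower ones were miR-486-5p, miR-30c-5p, miR-146b-5p, miR-574-5p, miR-574-3p, miR-374b-5p, miR-34a-5p, miR-26a-5p, miR-26b-5p, miR-335-5p, miR-221-3p, miR-328-3p, let-7a-5p, let-7b-5p, let-7d-5p and let-7e-5p. The 5 higher ones were miR-370-3p, miR-409-3p, miR-379-5p, miR-381-3p and miR-423-3p. Leaving out a DXR library left 9 to 13 miRNAs called higher, leaving out SDS D3 replicate 1 left 22 and SDS D4 replicate 2 left 21, while 22 to 35 were called lower whichever single library was left out.

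miR-486-5p, a miRNA abundant in erythroid and muscle cells, had the smallest p. Its levels were 234, 298, 304 and 374 CPM in the SDS libraries and 545, 699, 749 and 1012 CPM in the DXR libraries, so that every DXR library was above every SDS library. The mean was 303 ± 57.3 CPM after SDS and 751 ± 195 CPM after DXR (SD, n = 4), a difference of -1.32 (SE 0.17, adjusted p = 1.44e-06, edgeR). In these bulk samples, fewer cells with a miRNA and less of it per cell cannot be told apart. Other miRNAs of blood cells were read beside it. miR-142-5p and miR-144-5p had 0 counts in all 8 libraries, and miR-451a, the defining erythroid miRNA, had 0 counts in the SDS libraries and 0 to 3 in the DXR libraries. The sum of the 7 listed erythroid and leukocyte miRNAs, 238 to 374 CPM after SDS and 561 to 1028 CPM after DXR, was almost all miR-486-5p.

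miR-30c-5p, of the miR-30 family whose targets include the matrix regulator CTGF, had the next smallest p. It had 1585, 1588, 1749 and 1786 CPM after SDS and 2975, 3129, 3133 and 3214 CPM after DXR. The difference was -0.89 (SE 0.12, adjusted p = 1.54e-06, edgeR), and the gap between the treatments was wider than the range within either. Of 8 tested miR-30 members it was the only one called, beside 8.17% of all tested called lower. Below 0 lay 7 of the 8, while 59.5% of all tested lay above 0, and the family median was -0.27. The member above 0 was miR-30d-5p (0.27, adjusted p = 0.13, edgeR), which had the most counts of the family. The summed level of the 11 listed members overlapped, at 34548 to 51317 CPM after SDS and 41484 to 43189 CPM after DXR. Among the miRNAs with a sequence here, the same seed, GUAAACA, is carried by miR-30a-5p (-0.28, adjusted p = 0.097) and miR-30e-5p (-0.07), which were not called. With DESeq2's size factors 3 members of the family were called lower, and with library totals 1 was called lower and 1 higher.

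miR-146b-5p, an NF-κB-induced repressor of IRAK1 and TRAF6, was at 404, 463, 481 and 508 CPM after SDS. The DXR libraries held 813, 878, 881 and 1206 CPM, all above the SDS libraries. The difference was -1.03 (SE 0.15, adjusted p = 1.2e-05, edgeR). Its seed sister miR-146a-5p, from another chromosome, was much less abundant at 13.3 to 48.9 CPM, and its difference of 0.64 (SE 0.48) was not called (adjusted p = 0.44). miR-155-5p, the other well-known inflammatory miRNA, had 3777 to 5366 CPM after SDS and 4033 to 4119 CPM after DXR, and the difference of 0.18 (SE 0.12) was not called (adjusted p = 0.35).

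miR-374b-5p had 244, 249.5, 445 and 467 CPM after SDS and 683, 685, 705 and 786 CPM after DXR. The SDS libraries fell into a lower and a higher pair, each with 1 library of each day, and both pairs were below all DXR libraries. The difference was -1.0 (SE 0.18, adjusted p = 0.00016, edgeR).

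**Figure D2:**
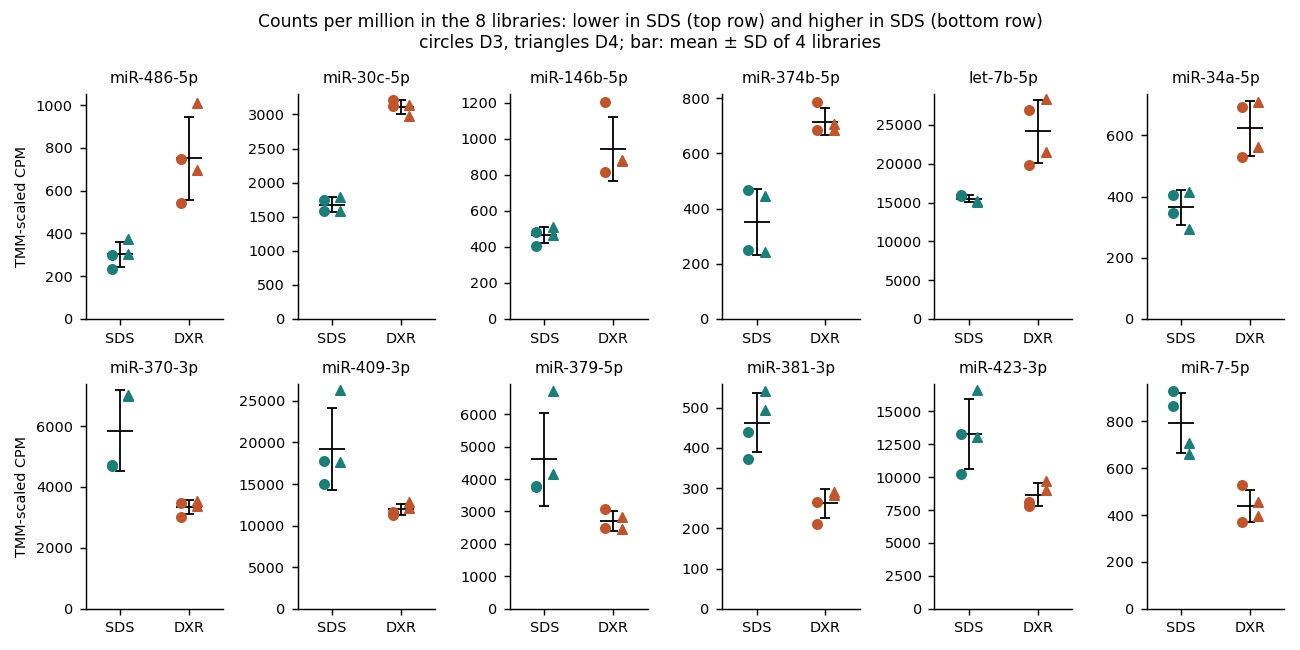
TMM-scaled CPM of 12 miRNAs in each of the 8 libraries, with SDS in green, DXR in orange, circles for D3, triangles for D4 and a bar for the mean ± SD of 4 libraries. In each panel the SDS and DXR libraries do not overlap, and for miR-370-3p the SDS libraries at D4 (6977 and 7013 CPM) lie above those at D3 (4682 and 4730 CPM).

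The let-7 family, whose member let-7a-5p was the most abundant miRNA here, summed to less after SDS. The 9 let-7 and miR-98 members summed to 178917 to 204321 CPM in the SDS libraries and to 213845 to 260992 CPM in the DXR libraries, with no overlap. let-7a-5p had 105805 ± 7456 CPM after SDS and 138831 ± 12695 CPM after DXR (SD, n = 4), a difference of -0.39 (SE 0.11, adjusted p = 0.00899, edgeR). let-7b-5p had 15059, 15220, 15877 and 15929 CPM after SDS and 19848, 21520, 26977 and 28288 CPM after DXR, and at -0.64 (SE 0.12, adjusted p = 0.00016) it differed most in the family. let-7d-5p (-0.54), let-7e-5p (-0.39) and let-7f-5p (-0.32) were also called lower, and let-7f-5p lost the call with library totals, all 36 libraries or 4 groups in place of day, and without SDS D3 replicate 2 or DXR D3 replicate 1. let-7g-5p (-0.18), miR-98-5p (-0.14), let-7c-5p (-0.13) and let-7i-5p (0.15) were not called. The family median was -0.32 against 0.11 over all tested miRNAs, and over the other scalings and the fit on all 36 libraries it was between -0.45 and -0.25.

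Among the other lower miRNAs, miR-34a-5p, transcribed directly by p53, had 294, 345, 406 and 416 CPM after SDS and 528, 563 and 692 CPM in 3 DXR libraries, with DXR D4 replicate 1 highest. All DXR libraries exceeded all SDS libraries, with a difference of -0.76 (SE 0.17, adjusted p = 0.00118, edgeR). The p53-induced list held 4 tested members, and miR-34a-5p was the only one called, beside 19.3% of all tested (8.17% lower). miR-192-5p lay in the other direction at 0.54, and miR-194-5p was at -0.31 (adjusted p = 0.44 and 0.58, edgeR). miR-34c-5p differed by -0.59 (adjusted p = 0.44, edgeR), with DXR D4 replicate 2 at 16.0 CPM and the other DXR libraries at 53.7 to 61.9 CPM. Without DXR D4 replicate 2 its difference was -1.10. The list median was -0.50 at D3 and -0.03 at D4. miR-26a-5p and miR-26b-5p, repressors of the methyltransferase EZH2, were lower together. miR-26a-5p had 17483 to 19879 CPM after SDS and 23130 to 27746 CPM after DXR (-0.42, SE 0.11, adjusted p = 0.00584), and miR-26b-5p had 1611 to 1794 and 2311 to 2760 CPM (-0.54, SE 0.12, adjusted p = 0.00151). miR-221-3p, a repressor of the cyclin-dependent kinase inhibitor p27, had 17146 to 19606 CPM after SDS and 22160 to 26225 CPM after DXR (-0.42, SE 0.11, adjusted p = 0.00619). Its seed partner miR-222-3p, from the same host gene, differed by -0.08 and was not called.

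Both arms of miR-574, an intronic miRNA of FAM114A1 on chromosome 4, were lower. miR-574-5p, a strand of GU repeats, had 3048, 3100, 3279 and 3754 CPM after SDS and 4090, 5094, 5724 and 6023 CPM after DXR (-0.66, SE 0.12, adjusted p = 0.00016, edgeR). miR-574-3p had 1695 to 2729 CPM after SDS and 2970 to 3719 CPM after DXR (-0.54, SE 0.13, adjusted p = 0.0038). miR-335-5p, from an intron of the imprinted gene MEST, was lower by 0.62 on the log2 scale and miR-328-3p by 0.63, and in both cases the treatments did not overlap. miR-320a had 9816 to 14319 CPM after SDS and 14351 to 21560 CPM after DXR (-0.48, SE 0.13, adjusted p = 0.00638), so that its highest SDS library and lowest DXR library nearly met. For miR-29b-1-5p, miR-193a-5p and miR-1249-3p, also called lower, the treatments overlapped.

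On the higher side, the 14q32 cluster stood out by number. This imprinted region, DLK1-DIO3, expresses many miRNAs from its maternal copy, many within the lncRNAs MEG8 and MEG9. Of its 62 tested members, 14 were higher after SDS (22.6%, against 8.20% of the other 244 tested miRNAs) and 0 were lower, while all 25 lower calls were among the others. Above 0 lay 80.6% of the members and 54.1% of the other miRNAs. Its median was 0.26 against 0.11 over all tested, and it exceeded the median of all tested by 0.15 under each scaling and in the fit on all 36 libraries. The number of members called was 8 to 19 over the scalings, most with library totals, and 5 in the fit on all 36 libraries. The summed level was 79495 to 107735 CPM in the SDS libraries and 65769 to 72847 CPM in the DXR libraries, and the 2 SDS libraries of D4 held the highest sums. Without SDS D4 replicate 2, 11 members were called and the median was 0.12 against 0.00 over all tested, and without DXR D4 replicate 2, 6 were called.

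The 14 called members were spread along the cluster and did not sit in a block. All 61 tested members with a position lay on the plus strand of chromosome 14, within chr14:100869075-101066786, and the called ones reached from miR-493-3p, the second in 5′ to 3′ order, to miR-410-3p, the 60th. miR-370-3p had 4682, 4730, 6977 and 7013 CPM after SDS and 3017, 3373, 3462 and 3550 CPM after DXR (0.78, SE 0.12, adjusted p = 1.93e-05, edgeR). miR-409-3p, the most abundant called member, had 14975, 17704, 17781 and 26272 CPM after SDS and 11263, 11630, 12125 and 12834 CPM after DXR (0.67, SE 0.12, adjusted p = 0.00016). In both cases no DXR library reached the lowest SDS library, and for miR-409-3p the highest value was SDS D4 replicate 2. miR-379-5p (0.74), miR-654-5p (0.79), miR-381-3p (0.82), miR-127-5p (0.82), miR-411-5p (0.67) and miR-494-3p (0.48) followed, with adjusted p of 0.00016 to 0.00319.

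The call of an arm of a hairpin was often not shared by the other, although no difference between arms was tested. miR-370-3p was called while miR-370-5p was at 0.17 (adjusted p = 0.80), miR-127-5p was called while miR-127-3p was at 0.25 (adjusted p = 0.15), and miR-654-5p was called while miR-654-3p was at -0.04 (adjusted p = 0.89). Across all hairpins, 66 had both arms tested and 27 of these had at least 1 arm called. Both arms were called, and in the same direction, for miR-28, miR-574 and miR-99b. The arms had the same sign in 18 of the 27 and in 40 of all 66.

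**Figure D3:**
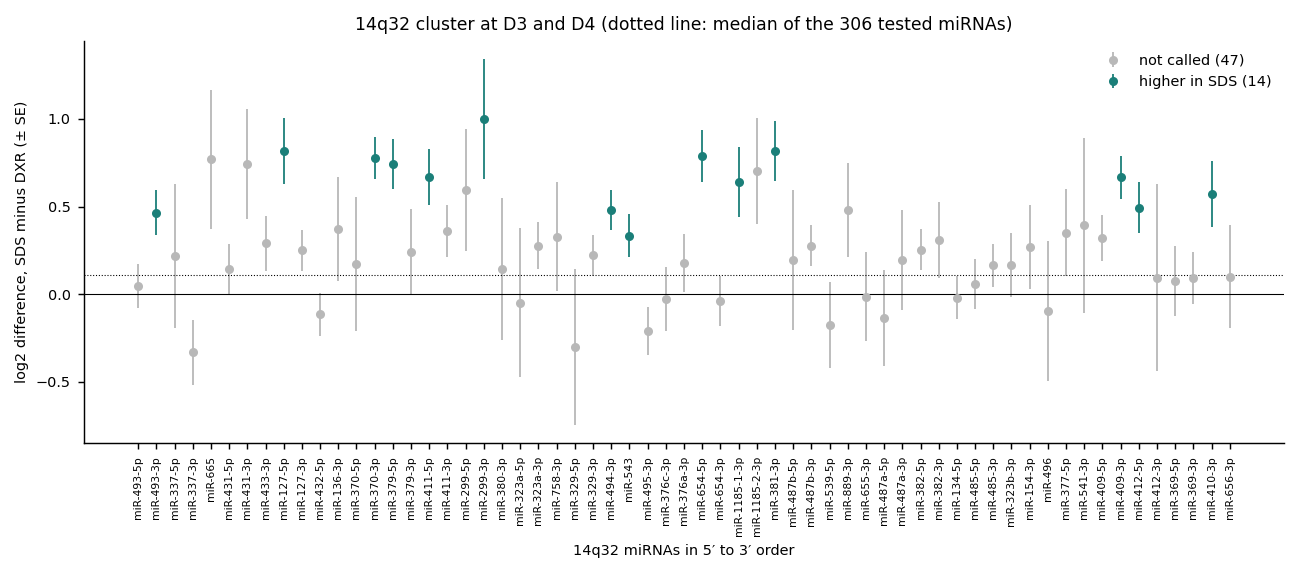
Log2 difference of SDS minus DXR with its SE (vertical axis) for 61 miRNAs of the 14q32 cluster in 5′ to 3′ order (horizontal axis, evenly spaced), with the 14 called higher after SDS in green. The called members lie between 0.33 and 1.0 and are interspersed with members near 0 along the whole order.

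Outside 14q32, 20 miRNAs were higher after SDS. miR-423-3p, processed from NSRP1 on chromosome 17, had 10205, 13036, 13256 and 16628 CPM after SDS and 7778, 8102, 9032 and 9707 CPM after DXR (0.61, SE 0.12, adjusted p = 0.000237, edgeR). The lowest SDS library was above the highest DXR library, while the other arm, miR-423-5p, differed by -0.10. miR-7-5p, a repressor of EGFR signalling, had 661, 709, 868 and 931 CPM after SDS and 371.5, 398, 455 and 527 CPM after DXR (0.84, SE 0.16, adjusted p = 0.00016), and it lost the call with the fit on all 36 libraries (adjusted p = 0.11) and without replicate 1 of every group. miR-31-5p, made from MIR31HG beside CDKN2A, had 11418, 11635 and 12042 CPM in 3 SDS libraries and 6726 CPM in SDS D4 replicate 2, against 6837 to 8217 CPM after DXR. With that library the difference was 0.49 (adjusted p = 0.00697), and without it 0.55 (adjusted p = 1.01e-05). It was not called with all 36 libraries, or without SDS D4 replicate 1 or any of the 4 DXR libraries.

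The largest fitted differences among the higher calls were those of miR-449c-5p and miR-625-3p. miR-625-3p, intronic in FUT8, had 90.3 to 162 CPM after SDS and 28.9 to 82.7 CPM after DXR (1.23, SE 0.31, adjusted p = 0.00434), and it lost the call without either DXR D3 library. miR-449c-5p, of a family that marks multiciliated cells, had 22, 22, 20 and 8 counts in the SDS libraries and 3, 1, 4 and 1 counts in the DXR libraries. It passed the count filter through the SDS libraries alone, which favours a difference above 0. Its fitted difference of 2.30 (SE 0.60, adjusted p = 0.00584) was not called by DESeq2 or without DXR D3 replicate 2 or DXR D4 replicate 2, and it was too low to be tested after thinning to equal totals. miR-129-5p (1.5, adjusted p = 0.066), let-7a-3p (1.49, adjusted p = 0.17) and miR-191-3p (1.25, adjusted p = 0.11) had no overlap between treatments but missed the threshold.

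Of the cell cycle miRNAs, the 13 listed members of miR-17-92 and its paralogous clusters had 7 tested, of which miR-92a-3p (0.41, adjusted p = 0.0139) and miR-93-5p (0.35, adjusted p = 0.0343) were called higher, beside 11.1% of all tested. miR-92a-3p lost the call under 5 of 10 alternatives and miR-93-5p under 7, as well as without each of the 8 libraries. miR-17-5p, which gives the cluster its name, had 100.3 to 303 CPM after SDS and 170 to 269 CPM after DXR and was not called (0.17, SE 0.22, adjusted p = 0.67). The miR-15, miR-16, miR-424 and miR-503 group holds miR-16-5p and others with its seed AGCAGCA, which restrain cyclins. It also holds members with other seeds, such as miR-424-3p (AAAACGU) and miR-450a-5p (UUUGCGA). All 9 tested members of the group lay above 0, as did 59.5% of all tested, with a median of 0.26. Of these, miR-424-3p (0.45) and miR-503-5p (0.42) were called, beside 11.1% of all tested. With median centring or all 36 libraries 8 of the 9 lay above 0 and 0 were called. The miR-28, miR-151 and miR-708 group had 3 of 7 called higher, miR-28-3p (0.57), miR-151a-3p (0.45) and miR-28-5p (0.41), beside 11.1% of all tested. With size factors or median centring 1 of the 7 was called and with all 36 libraries 0.

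The remaining groups are given by their counts, beside the 19.3% called of all tested. The fibroblast label was read against mesenchymal miRNAs, of which miR-21-5p, miR-22-3p and miR-143-3p had the most counts. None of the 9 tested mesenchymal miRNAs was called, with a median of 0.10, and the summed level of the 11 listed ones overlapped (76292 to 91033 CPM after SDS, 72526 to 102131 CPM after DXR). The miR-181 family had 0 of 6 called, the CLCN5 cluster 0 of 8, the miR-130, miR-301 and miR-454 group 0 of 3, and the miRNAs that overlap other small RNAs 0 of 4. The miR-29 family had 1 of 3 called (miR-29b-1-5p, -0.56), the miR-221 and miR-222 pair of loci 1 of 4, the clusters of miR-23, miR-27 and miR-24 1 of 10 (miR-23b-3p, -0.39), miR-193 and miR-365 1 of 6 (miR-193a-5p, -0.40) and the miR-10, miR-100 and miR-125 families 1 of 6 (miR-99b-5p, 0.46). Of other cell types, the epithelial markers miR-205-5p and miR-141-3p were at 0 in all 8 libraries and the 8 epithelial markers summed to 50.1 to 64.3 CPM after SDS and 34.7 to 57.8 CPM after DXR. The 2 endothelial markers summed to 48.9 to 70.5 CPM after SDS and 73.7 to 131 CPM after DXR, and miR-126-3p was not called (-0.57, adjusted p = 0.24). A count of 0 leaves room for up to 3 counts in a library, and this covers counting error only.

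Each day gave calls of its own. Tested alone, D3 gave 10 calls (3.27%: 4 higher, 1.31%, and 6 lower, 1.96%) and D4 gave 30 (9.8%: 15 in each direction, 4.9%), with 2 libraries against 2 on each day. All 10 calls of D3 and 28 of the 30 of D4 were among the 59, and the other 2 were miR-143-3p (0.64) and let-7d-3p (-0.60). The 59 were chosen from the same libraries, which favours this overlap. Over all tested miRNAs, chosen by neither day, the differences at D3 and D4 had r of 0.47. All 59 had the same sign on both days, which the averaging of the days favours, as did 71.2% of all tested miRNAs. In 41 of the 59 the difference was larger in size at D4. The change from D3 to D4 was itself tested, and 0 of 306 miRNAs passed with edgeR (10 at an unadjusted p below 0.05, smallest adjusted p 0.989) and 0 with DESeq2 (7 unadjusted). The miRNAs nearest to a change were miR-127-5p, from 0.33 at D3 to 1.31 at D4, and miR-625-3p, from 2.07 to 0.58.

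Both arms were also set beside untreated proliferating cells. In the fit on all 36 libraries, the SDS and DXR libraries of D3 and D4 were each set against the same 2 Ctrl libraries, so the values share those libraries and are given side by side. CPM of the Ctrl libraries were scaled in this fit, apart from the CPM of the treated libraries given above. The 59 miRNAs were chosen from the same SDS and DXR libraries, which by itself places DXR high and SDS low for the lower set and the reverse for the higher set, so the counts are a description with no test. Of 360 miRNAs tested there, 10 differed from Ctrl after SDS (2.78%; 0.556% higher, 2.22% lower) and 30 after DXR (8.33%, of which 4.72% higher and 3.61% lower). Of the 25 miRNAs that were lower after SDS than after DXR, 24 lay above Ctrl after DXR with 11 called higher, beside 173 of all 306 tested above Ctrl. After SDS, 12 of them lay above Ctrl, beside 160 of 306, with 0 called higher and miR-29b-1-5p called lower, and the medians were 0.60 after DXR and -0.01 after SDS. miR-486-5p had 202 and 194 CPM in the Ctrl libraries and differed from them by 2.02 after DXR (SE 0.36, called) and by 0.57 after SDS (adjusted p = 0.41). miR-30c-5p showed 1.08 after DXR and 0.05 after SDS, miR-34a-5p 0.93 and 0.03, and let-7b-5p 0.88 and 0.11. miR-146b-5p was an exception, at 0.29 after DXR and -0.87 after SDS, with neither called (adjusted p = 0.52 and 0.062).

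For the 34 miRNAs that were higher after SDS, the medians against Ctrl were 0.27 after SDS and -0.30 after DXR. After DXR, 6 lay above Ctrl, and 5 of the others were called lower, miR-7-5p (-1.66), miR-625-3p (-1.42), miR-93-5p (-1.05), miR-28-3p (-0.60) and miR-423-3p (-0.56). After SDS, 23 lay above Ctrl with 0 called, and miR-93-5p was called below Ctrl (-0.83). miR-7-5p stood at 1207 and 1782 CPM in the Ctrl libraries, above the CPM given for the 8 treated libraries, which were scaled apart. The 14q32 list as a whole lay above Ctrl in both arms, with medians of 0.44 after SDS and 0.26 after DXR. Of its members named above, miR-370-3p was at 0.39 after SDS and -0.25 after DXR, miR-379-5p at 0.30 and -0.31, and none of these passed the test. miR-155-5p, with 8830.3 and 9908 CPM in Ctrl, was called below Ctrl in both arms, by -1.04 after SDS and -1.08 after DXR, and so was miR-17-5p, by -0.99 and -0.99.

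**Figure D4:**
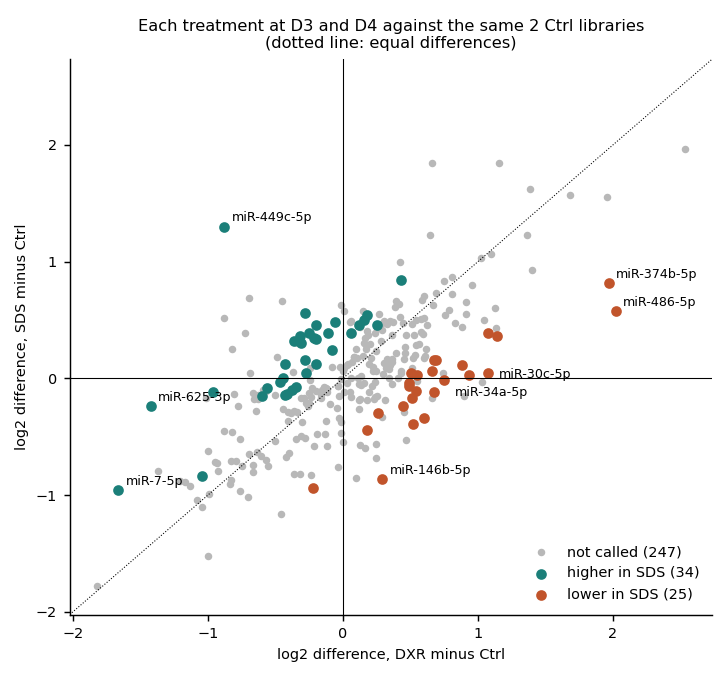
Log2 difference from Ctrl after DXR (horizontal axis) and after SDS (vertical axis) at D3 and D4 for the tested miRNAs, both against the same 2 Ctrl libraries, with the 34 higher after SDS in green and the 25 lower in orange. The orange points lie to the right of 0 with 1 exception and close to 0 on the vertical axis at the median, while the green points lie mostly to the left of 0.

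Libraries of other days, which had no part in choosing the 59, were read in the same fit. At D6 and D8, where 5.83% of 360 miRNAs were called, all 25 lower miRNAs were still below 0 and 13 of them were called (background 4.44% lower). The 13 were miR-486-5p, miR-30c-5p, miR-146b-5p, miR-574-5p, miR-574-3p, miR-221-3p, miR-320a, miR-328-3p, miR-1301-3p, let-7a-5p, let-7b-5p, let-7d-5p and let-7e-5p. Of the 34 higher miRNAs, 31 were above 0, against 44.1% of all tested, and 3 were called (background 1.39% higher): miR-370-3p (0.54), miR-379-5p (0.68) and miR-31-5p (0.59). At D16, 21 of the 25 and 28 of the 34 kept their sign and 0 were called (background 0.556%, all of it higher), with 51.6% of all tested above 0. At D1 and D2, 17 of the 25 and 22 of the 34 had the same sign, with 56.5% of all tested above 0. Of these, 10 and 2 were called (background 12.8%, or 6.39% in each direction). The days differed: 13 of the 25 and 16 of the 34 had the same sign at D1, and 19 and 23 at D2. At D0, 12 of the 25 and 8 of the 34 had the same sign, with 48.4% of all tested above 0. There, 1 and 0 were called (background 1.67%, or 0.833% in each direction).

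The fitted differences on single days ran unlike courses in the miRNAs named here, and the order in which they appeared was not tested. miR-34a-5p was furthest apart at D0 (-1.30), stood at -0.81 at D3 and -1.0 at D4, and ended at 0.17 at D16. miR-146b-5p reached -1.45 at D2 and -0.12 at D16, and miR-486-5p was below -1 from D2 to D8. let-7b-5p was higher after SDS at D0 (0.46) and D1 (0.59) and lower from D2 on. The change from D1 and D2 to D3 and D4 was tested in the fit on 36 libraries, and 7 of 360 miRNAs passed (1.94%), of which 4 were among the 59. miR-374b-5p went from 0.60 to -1.15, a change of -1.75 (SE 0.28), miR-320a from 0.76 to -0.61 (not called at D3 and D4 in this fit, adjusted p = 0.15), miR-379-5p from -0.37 to 0.61 and miR-370-3p from -0.08 to 0.64. The change from D3 and D4 to D6 and D8 passed for 0 of 360 (17 at an unadjusted p below 0.05, edgeR).

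**Figure D5:**
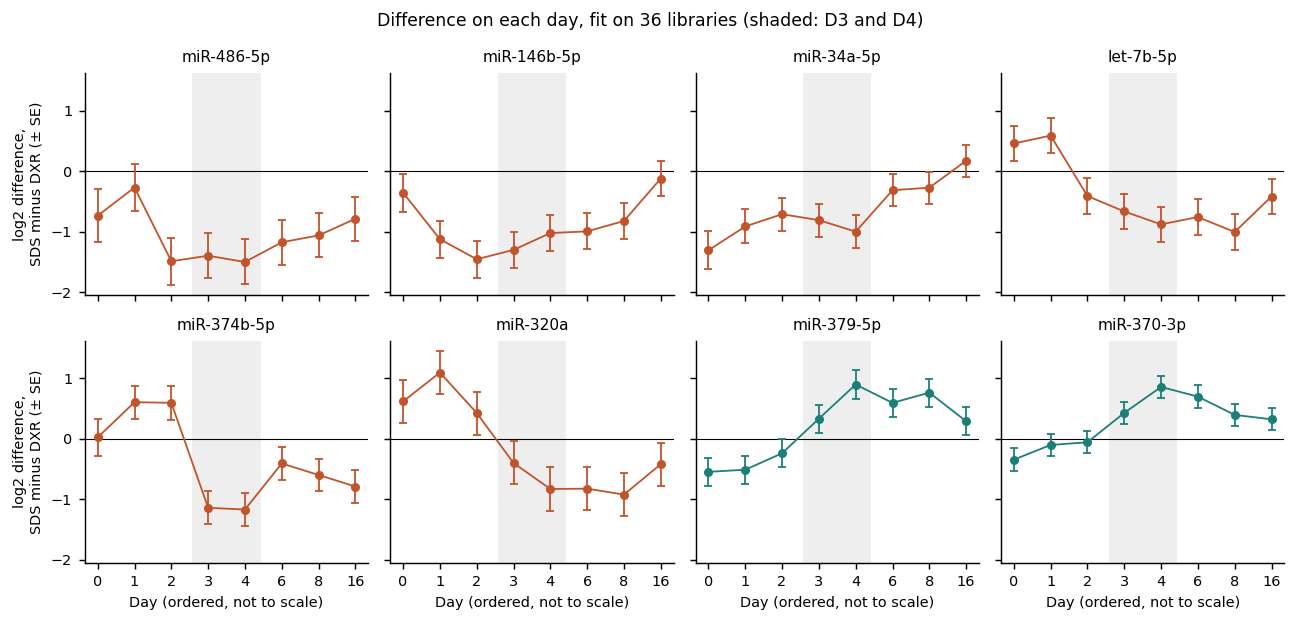
Log2 difference of SDS minus DXR with its SE on each sampled day (horizontal axis, days in order and not to scale) for 8 miRNAs, from the fit on all 36 libraries, with D3 and D4 shaded. miR-374b-5p and miR-320a pass from above to below 0 between D2 and D3, and miR-379-5p passes from below to above.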

How the data were processed

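The authors trimmed the small RNA reads, mapped them to GRCh38 and miRBase with the exceRpt pipeline and deposited an estimated count for each mature miRNA and library, not normalized. Of 12064 values in the 8 libraries, 224 were not whole, as where a read is split between miRNAs, and 18 names join miRNAs. The miRBase release is not given in the sources used here. 0 columns lacked a sample.

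Counts were rounded and tested with edgeR 4.0.16 in R 4.3.3: filterByExpr on 4 groups, TMM, and the quasi-likelihood test on day and treatment (common biological coefficient of variation 16.0%, 5 residual degrees of freedom). Single days and their difference used a 4-group model on the same 8 libraries, and Ctrl and other days an 18-condition model on 36 libraries. DESeq2 1.42.0 was an alternative. The tests of change from D1 and D2, and to D6 and D8, were chosen after seeing the data. On simulated counts for this comparison (303 miRNAs), 79 of 93 miRNAs changed by 1 on the log2 scale and 98 of 99 changed by 2 were called, and 3 of 111 unchanged ones. The simulation differed from the data: most of its miRNAs were changed, in independent libraries. In the data 19.3% of the tested miRNAs were called, with a median size of 0.57. Recovery of such smaller and rarer differences was not measured.

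Named miRNAs were up to 15 per direction with the smallest p, up to 4 per direction with the largest difference past the study's thresholds and no overlap, 6 set by name (miR-155-5p, miR-34a-5p, miR-17-5p, miR-30c-5p, miR-486-5p, miR-146b-5p), up to 3 per list, and 4 for the change between D3 and D4. Other names complete a count or a seed, arm or other-day comparison and were chosen after their values were seen. The comparison, lists and rules were chosen with earlier results of these data known. Alternatives were other scalings, filters, DESeq2, all 36 libraries, 4 groups, the replicate block, thinning and leaving out libraries.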

Additional observations from a re-analysis of the deposited data

Results flagged for a closer look

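Within the 4 SDS or the 4 DXR libraries, 12 of 168 groups (83 miRNAs and the total count in each treatment) held a library far from the others by Dixon's criterion, where chance alone flags about 1 in 20. The cause was not tested. SDS D4 replicate 2, the library that stood apart on the principal components, gave 5 of them. It was low for miR-31-5p (6726 CPM, others 11418 to 12042), miR-328-3p (300.9 CPM, others 470 to 481), miR-17-5p (100.3 CPM, others 252 to 303) and miR-93-5p (2246 CPM, others 2469 to 2517), and high for miR-152-3p (1103 CPM, others 836 to 864). Without it, miR-31-5p and miR-328-3p kept their calls (adjusted p = 1.01e-05 and 0.00197, edgeR), miR-93-5p lost its call (adjusted p = 0.076) and miR-152-3p gained one (adjusted p = 0.047).

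SDS D4 replicate 1 was high for miR-542-3p (186 CPM, others 110 to 120) and low for miR-221-5p (1272 CPM, others 1654 to 1724). DXR D4 replicate 2 was low for miR-34c-5p (16.0 CPM, others 53.7 to 61.9) and high for miR-181a-2-3p (189 CPM, others 144 to 150.6). DXR D3 replicate 2 was high for miR-92a-3p (16328 CPM, others 14705 to 14951), which lost its call without it (adjusted p = 0.14), and for miR-122-5p (78.4 CPM, others 42.7 to 47.0). DXR D4 replicate 1 was high for miR-125a-5p (32639 CPM, others 27947 to 28623).

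For 4 miRNAs the difference between treatments at D3 and D4 was unlike that at D1 and D2, by a test of the change in the fit on 36 libraries (edgeR, adjusted over 360 miRNAs). The change was -1.75 for miR-374b-5p (adjusted p = 0.000188), -1.37 for miR-320a (adjusted p = 0.034), 0.99 for miR-379-5p (adjusted p = 0.022) and 0.72 for miR-370-3p (adjusted p = 0.034). These 4 were called at D3 and D4 in the fit on 8 libraries, which favours a larger difference on those days. For miR-374b-5p and miR-320a the early difference was itself called in the opposite direction (0.60, adjusted p = 0.041, and 0.76, adjusted p = 0.045). In the fit on 36 libraries, miR-320a was not called at D3 and D4 (-0.61, adjusted p = 0.15).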

How the results depend on the processing

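The main counts were 34 higher and 25 lower. Higher calls numbered 22 with DESeq2's size factors, 22 without a filter, 20 with a mean of at least 10 counts, 8 with all 36 libraries and 15 when the median difference was set to 0, an alternative added after seeing the data. DESeq2's test gave 24 and 32, library totals 43 and 17, thinning 23 and 32, and the median-centred scaling 15 and 32. The fit with the replicate number as a block gave 33 and 25. Same-numbered libraries deviated together for SDS D3 with SDS D4 (r = 0.38) and SDS D3 with DXR D3 (r = 0.17). The other 4 pairs of groups had r of -0.08 to 0.0011, and the numbers were not taken to pair the samples. The tests therefore treat D3 and D4 libraries of a treatment as independent, which the r of 0.38 puts in doubt for SDS. The block was shared by both treatments, so it cannot take up a correlation within the SDS arm alone. If such libraries shared a culture, the p-values would be too small. Leaving out a library gave 9 to 30 higher (fewest without DXR D3 replicate 2) and 22 to 35 lower, and without replicate 1 or 2 of every group it gave 4 and 7, or 20 and 40. The split moved from 57.6% higher to 25.8% (all 36 libraries) and 71.7% (library totals). The fit on 36 libraries changed the model and the tested set along with the scaling. The cause of these shifts was not tested.

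At the study's thresholds (7 higher, 2 lower) the higher count was 4 with size factors, DESeq2 or median centring, 15 without a filter and 2 with a mean of at least 10 counts or thinning, and 3 to 12 with libraries left out. The lower count was 1 with library totals, 4 with DESeq2 or a mean of at least 10 counts, 14 without a filter, 6 with all 36 libraries, 5 with thinning or median centring, and 3 to 8 with libraries left out. At D3, 10 became 24 with DESeq2 and 3 with all 36 libraries, and 1 (without DXR D3 replicate 1) to 31 with a library left out. At D4, 30 became 12 with all 36 libraries and 7 (without either DXR D4 library) to 51. The change between D3 and D4 was 0 throughout.

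For the 14q32 cluster, 14 called members became 5 with all 36 libraries, 8 with median centring, 6 to 13 with a library left out and 1 or 9 without replicate 1 or 2. Its median of 0.26 became 0.18 with size factors or DESeq2, 0.17 with a mean of at least 10 counts, 0.12 with all 36 libraries, 0.15 with median centring and 0.12 to 0.31 with a library left out. For let-7 and miR-98 the median of -0.32 became -0.45 with all 36 libraries, -0.43 with median centring, -0.48 to -0.27 with a library left out and -0.26 or -0.52 without replicate 1 or 2, and 5 called members became 4 to 6, or 2 without replicate 1.

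Of 1648 values for 83 named miRNAs under alternatives, 1395 kept direction and side of the threshold, 158 lost the threshold, 65 gained it and 30 changed sign, none of these in a called miRNA. The sign changed with all 36 libraries for miR-29a-3p (-0.026) and miR-369-3p (-0.042), with median centring for miR-369-3p (-0.016) and with library totals for miR-365a-3p|miR-365b-3p (0.012). With libraries left out, values ran across 0 for miR-17-5p (-0.24 to 0.28), miR-29b-3p (-0.80 to 0.87), miR-29a-3p (-0.082 to 0.16), miR-221-5p (-0.019 to 0.20), miR-143-3p (-0.052 to 0.60), miR-130b-3p (-0.115 to 1.22), miR-130a-3p (-0.16 to 0.78), miR-193b-5p (-1.09 to 0.37), miR-365a-3p|miR-365b-3p (-0.41 to 0.015), miR-362-5p (-0.094 to 0.58), miR-200c-3p (-0.044 to 0.37), miR-122-5p (-0.14 to 0.36), miR-1260b (-1.36 to 0.16) and miR-369-3p (-0.095 to 0.22).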
